A study of Arabidopsis thaliana with 9 samples.

Results

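The comparison described here sets the Arabidopsis thaliana quadruple mutant, which carries rev-6, against the triple mutant without it. It uses 6 of the 9 arrays of the study, 3 of each mutant, chosen by the genotype in their titles. The other 3 arrays are of wild type, Col er-2, and their values are given beside the mutant values of many genes as a reference. A rise or fall below is between the mutants, and does not say which of them is away from wild type. The triple mutant is labelled cna-2 phb-13 phv-11. The quadruple mutant had rev-6 besides mutant alleles of CNA, PHB and PHV. Its PHV allele is phv-11 in some labels but phv-6 in others, and its PHB allele, phb-13 elsewhere, is phb1 in the titles. All mutant arrays therefore carry mutations in CNA, PHB and PHV, and the comparison asks what differs where rev-6 is added. The labels do not agree on whether the PHB and PHV alleles are the same in both mutants. Quadruple homozygotes were picked from the progeny of plants that were cna-2 phb-13 phv-11 and heterozygous for rev-6, by their radial cotyledons. Such a selection is not described for the triple mutant. Effects of rev-6, of any difference in those alleles and of the selection cannot be told apart. Every sample was the terminal 0.5 mm of about 200 primary roots, hand-dissected 4 days after germination from untreated seedlings kept at 22 °C in days of 18 h light and 6 h dark. In such bulk tissue, fewer cells of a type and less RNA per cell cannot be told apart.

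REV, PHB, PHV, CNA and ATHB8 form the HD-ZIP III family of plant transcription factors. In the root they are known for patterning the vascular cylinder, in particular for setting xylem cell types, and they are restrained there by the microRNAs miR165 and miR166. Members of the family act in part redundantly, which is why mutants in several of them are studied together. PHV was the 1 family member with a probe set listed to 1 gene with a symbol. The other 4 were therefore not analysed here, and the REV level cannot serve as a check of rev-6. The log2 signal of PHV was 4.71, 4.77 and 4.76 in the triple mutant (replicates 1, 2 and 3, the order used throughout), 5.20, 5.22 and 5.03 in the quadruple mutant and 7.27, 7.14 and 7.28 in wild type. All quadruple values lay above all triple values and far below wild type. The difference between the mutants was 0.40 on the log2 scale, where 1 is a 2-fold change (SE 0.09, limma adjusted p = 0.0405). That call ended without any 1 of the mutant arrays or wild-type replicate 1, with adjusted p up to 0.170, and with limma's variance trend and robust setting (adjusted p = 0.0967).

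Of 22746 probe sets, 504 (2.22%) passed limma's test at an adjusted p under 0.05, with 126 (0.554%) higher and 378 (1.66%) lower in the quadruple mutant. The median log2 change was 0.72 over the higher and -0.88 over the lower ones, against 0.03 over all probe sets, of which 58.1% had a change above 0. Changes of at least 2-fold were found for 25 of the higher and 139 of the lower probe sets, and of at least 4-fold for 2 and 12. The mutant arrays did not overlap for 3762 probe sets (16.5%), among them all 504 that passed. It follows from this lack of overlap that each of the 504 moved the same way in all 3 pairs of same-numbered arrays. With the replicate number as a block, 1114 probe sets (4.9%) passed, 296 higher and 818 lower, and they included all 504.

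**Figure D1:**
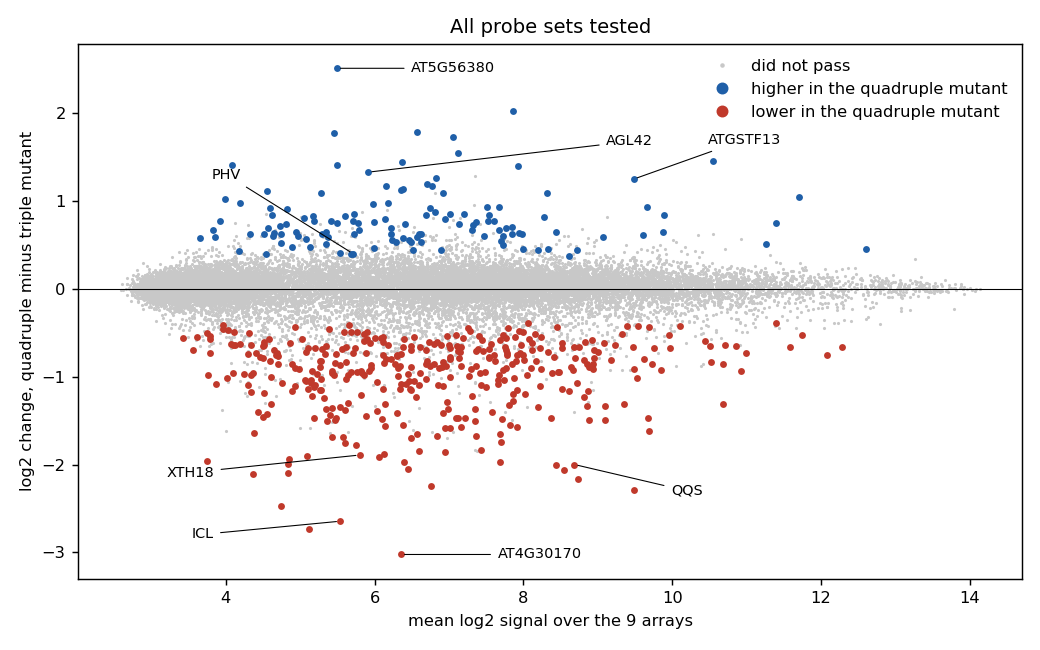
Log2 change between the mutants (vertical axis, quadruple minus triple) against the mean log2 signal over the 9 arrays (horizontal axis), 1 point per probe set. Coloured points are the 126 higher and 378 lower probe sets that passed, and the lower ones reach farther from 0, to -3.02 against 2.51.

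The number of calls rested on single arrays. It fell to 220 without replicate 1 and 298 without replicate 2 of the triple mutant. Leaving out replicate 1, 2 or 3 of the quadruple mutant gave 235, 238 or 295. Without any 1 of the other arrays it lay between 426 and 610, and 181 probe sets, 44 higher and 137 lower, passed in all 9 such fits. Calls were most frequent at middle signal, at 3.99% of probe sets with a mean log2 signal of 4 to 6 and 3.67% of those at 6 to 8. They were 0.235% of those under 4 and 1.28% of those at 10 or above. Array medians of the log2 signal were 5.91 to 5.95 in both mutants, and replicate arrays correlated at 0.994 to 0.997 across probe sets.

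Control probe sets differed between the arrays. The hybridization spike-ins, added in equal amounts just before hybridization, had a mean log2 signal of 10.16 to 10.29 on triple-mutant arrays and 9.94 to 10.02 on quadruple-mutant arrays, with no overlap. The poly-A spike-ins, which are mixed into the RNA before labelling, stood at 7.20 and 6.71 on triple- and quadruple-mutant replicate 3 and at 4.82 to 5.25 on the other 7 arrays. The 25S rRNA probe set read 7.95 and 7.07 in quadruple-mutant replicates 1 and 2, and 9.28 to 10.70 elsewhere. The log2 difference between the 3′ and 5′ probe sets of GAPDH was 0.81, 1.32 and 0.52 in the quadruple against 0.74, 0.73 and 0.45 in the triple mutant. That of actin was 2.83, 3.92 and 2.12 against 2.65, 3.05 and 2.03. Both were higher in the quadruple mutant in every same-numbered pair, and the ranges of the mutants overlapped, with quadruple-mutant replicate 2 highest. The part of these controls in the calls was not tested. Without the arrays numbered 3, a setting chosen after the data were seen, 377 probe sets passed, 85 higher and 292 lower, of which 293 were among the 504.

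**Figure D2:**
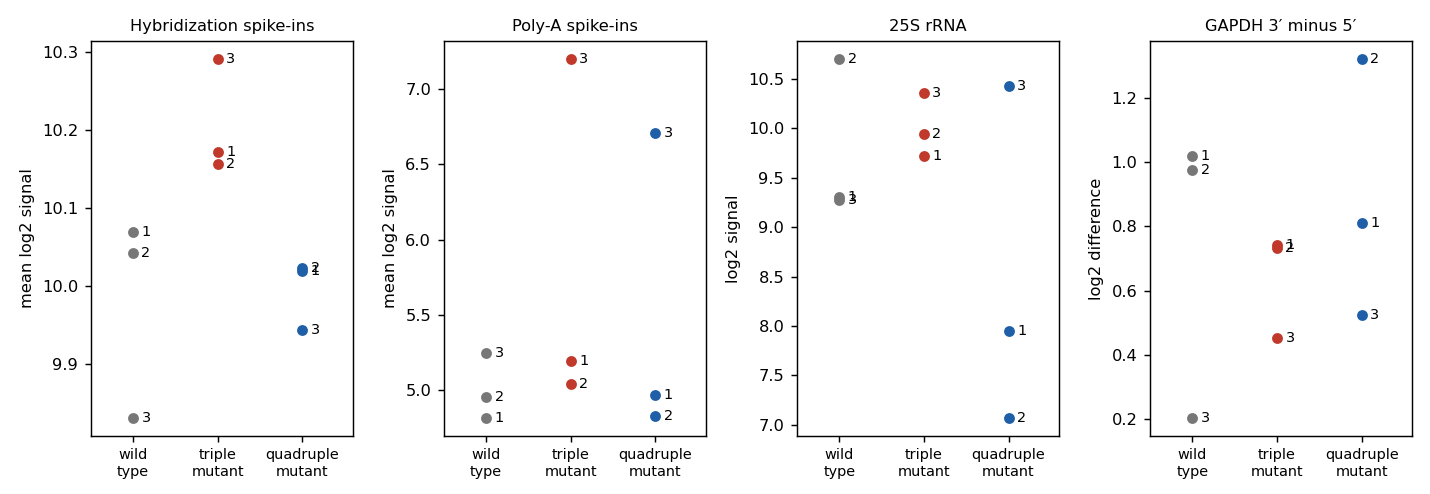
Signals of control probe sets on each array by genotype, with the replicate number beside each point. The vertical axes are log2 signals, and in the last panel the log2 difference between the 3′ and 5′ probe sets of GAPDH, a measure of RNA length. The hybridization spike-ins separate the mutants, and the poly-A spike-ins set 2 arrays numbered 3 apart.

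Both counted genes on the list of quiescent-centre and stem-cell markers rose in the quadruple mutant. The list also names WOX5, PLT1, PLT2 and PLT3, which were not counted. Lists here and below count only genes with a symbol and a probe set listed to 1 gene. Counts in lists stand beside 2.22% of all probe sets that passed, 0.554% higher and 1.66% lower. AGL42 is also among the 250 genes on either side of REV. AGL42, a MADS-box gene expressed in the quiescent centre, had log2 signals of 5.50, 5.09 and 5.19 in the triple mutant, 6.66, 6.35 and 6.76 in the quadruple mutant and 6.04, 5.66 and 5.97 in wild type. The 3 genotypes did not overlap, with the triple mutant lowest and the quadruple mutant highest, and AGL42 was 2.52-fold higher in the latter mutant (limma log2 change 1.33 ± 0.15 SE, adjusted p = 0.00149). BBM, an AP2 transcription factor of the root stem-cell region, read 7.94, 7.75 and 8.0 in the triple against 8.38, 8.33 and 8.35 in the quadruple mutant, with 7.86, 7.70 and 7.68 in wild type. Its 3 quadruple values lay above all 6 others (limma log2 change 0.45 ± 0.09 SE, adjusted p = 0.0353). AGL42 was the 1 gene to pass among 40 measured MADS factors (2.5%, beside 2.22% of all probe sets), whose median log2 change was 0.04. With the replicate block AGL21 (0.42) passed as well (adjusted p = 0.0231).

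Of 16 auxin genes counted by symbol, 2 rose, none fell and 14 did not pass, beside 0.554% higher of all probe sets. Their median log2 change was 0.04. Auxin genes known here only by locus were not counted, also where such a locus is named below, so these families as a whole were not described. With the replicate number as a block 3 rose. IAA20, a non-canonical Aux/IAA repressor of auxin responses, read 6.10, 5.95 and 6.06 in the triple mutant, 6.65, 6.88 and 6.78 in the quadruple mutant and 6.60, 6.48 and 6.23 in wild type. The mutants did not overlap, and the gene was 1.67-fold higher in the quadruple mutant (limma log2 change 0.74 ± 0.11 SE, adjusted p = 0.00759). WES1, which conjugates auxin to amino acids, read 5.64, 5.88 and 6.11 in the triple against 6.43, 6.56 and 6.73 in the quadruple mutant, again without overlap (limma log2 change 0.70 ± 0.13 SE, adjusted p = 0.0243). In wild type WES1 read 6.23, 6.07 and 6.33. The other Aux/IAA gene with a large value, IAA33, stood at 0.71 (adjusted p = 0.154) and passed with the replicate block (adjusted p = 0.0390). The remaining 13 genes of the list lay between -0.33 and 0.26. The calls of BBM and WES1 ended without any 1 of the quadruple-mutant arrays or of triple-mutant replicates 1 and 2, with adjusted p up to 0.142 and 0.0966.

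HEMA3, a glutamyl-tRNA reductase of the first committed step of tetrapyrrole synthesis, read 4.39, 4.75 and 4.42 in the triple mutant, 5.14, 5.22 and 5.15 in the quadruple mutant and 5.16, 5.11 and 5.13 in wild type. The quadruple and wild-type ranges overlapped and both lay above the triple mutant (limma log2 change 0.65 ± 0.10 SE, adjusted p = 0.00969). The gene hemb2, for an enzyme of a later step, delta-aminolevulinic acid dehydratase, read 6.71, 6.61 and 6.98 in the triple against 7.74, 7.33 and 7.79 in the quadruple mutant (limma log2 change 0.85 ± 0.15 SE, adjusted p = 0.0198). Its wild-type values were 7.47, 7.13 and 7.11. Of 10 measured tetrapyrrole genes, a list drawn up after the values were seen, these 2 rose, beside 0.554% higher of all probe sets. The other 8 lay between -0.40 and 0.14. HEMA2 and HEMB1, which encode other forms of these enzymes, stood at -0.24 and 0.11 (adjusted p = 0.463 and 0.788).

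CYP51G2, a cytochrome P450 named for the sterol 14-demethylase family, read 5.24, 5.56 and 5.39 in the triple against 6.36, 6.76 and 6.60 in the quadruple mutant. It was 2.26-fold higher (limma log2 change 1.18 ± 0.12 SE, adjusted p = 8.83e-04), the 1 rise among 24 measured P450 genes. Of these CYP71B26 fell (-0.95) and 22 did not pass, so that 8.33% passed, beside 2.22% of all probe sets. ATGSTF13, a phi-class glutathione S-transferase, was brighter, at 8.64, 9.06 and 8.64 in the triple against 10.07, 9.94 and 10.10 in the quadruple mutant. It was 2.38-fold higher (limma log2 change 1.25, adjusted p = 9.72e-04), and the other 13 measured glutathione S-transferases did not pass, with GSTU16 at -0.74 (adjusted p = 0.368). With the replicate block GSTU16 and GSTU22 passed as lower (adjusted p = 0.00110 and 0.0142). SDH1-2, a flavoprotein subunit of succinate dehydrogenase, rose from 4.31, 4.34 and 4.55 to 5.11, 5.03 and 4.96 (limma log2 change 0.63, adjusted p = 0.0320). The brighter gene for the same subunit, SDH1-1, had a mean of 10.98 in the triple against 11.02 in the quadruple mutant (adjusted p = 0.963).

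SWEET17, a vacuolar fructose transporter, rose by 0.60 and the subtilase gene SBT1.3 by 0.62. The GH9-family gene GH9B8 rose by 0.62, as 1 of 15 (6.67%, beside 2.22% of all probe sets that passed). The polysaccharide-acetylation family member TBL45 rose by 0.63. TBL45 was tight, at 5.87, 5.89 and 5.87 in the triple against 6.54, 6.54 and 6.42 in the quadruple mutant (limma adjusted p = 0.00521). With the replicate block 3 GH9 genes rose and 1 fell. The dynamin-like gene DL1B rose by 0.48 and the class XI myosin gene XIC by 0.46, while the other 4 measured class XI myosins stood at 0.09 to 0.17 without passing. BGLU44, a beta-glucosidase, rose by 1.02 (adjusted p = 0.0435), with quadruple values of 4.38, 4.28 and 5.16.

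Several of these calls depended on 1 array. Those of SDH1-2, SWEET17 and GH9B8 ended without any 1 of the quadruple-mutant arrays or of triple-mutant replicates 1 and 2, with adjusted p up to 0.141, 0.167 and 0.115. HEMA3 (up to 0.0538) needed quadruple-mutant replicate 2 and triple-mutant replicate 1, and DL1B (up to 0.0644) needed replicate 1 of both mutants. The call of hemb2 (up to 0.0957) ended without replicates 1 or 3 of the quadruple or 1 or 2 of the triple mutant. BGLU44 and SBT1.3 lost theirs in 8 and 7 of the 9 fits, and XIC lost it in all 9, with adjusted p up to 0.170, 0.159 and 0.203. BGLU44 passed only in the fit without wild-type replicate 3, and SBT1.3 only in those without quadruple-mutant replicate 3 or wild-type replicate 3. With the 6 mutant arrays fitted alone, BGLU44, SBT1.3, SWEET17 and XIC did not pass (adjusted p = 0.0787, 0.0741, 0.0609 and 0.0556). Neither did BGLU44 after quantile normalization (adjusted p = 0.0578) or XIC with limma's variance trend and robust setting (adjusted p = 0.0824). CYP71B26 (up to 0.169) passed only without wild-type replicate 1 or 2.

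**Figure D3:**
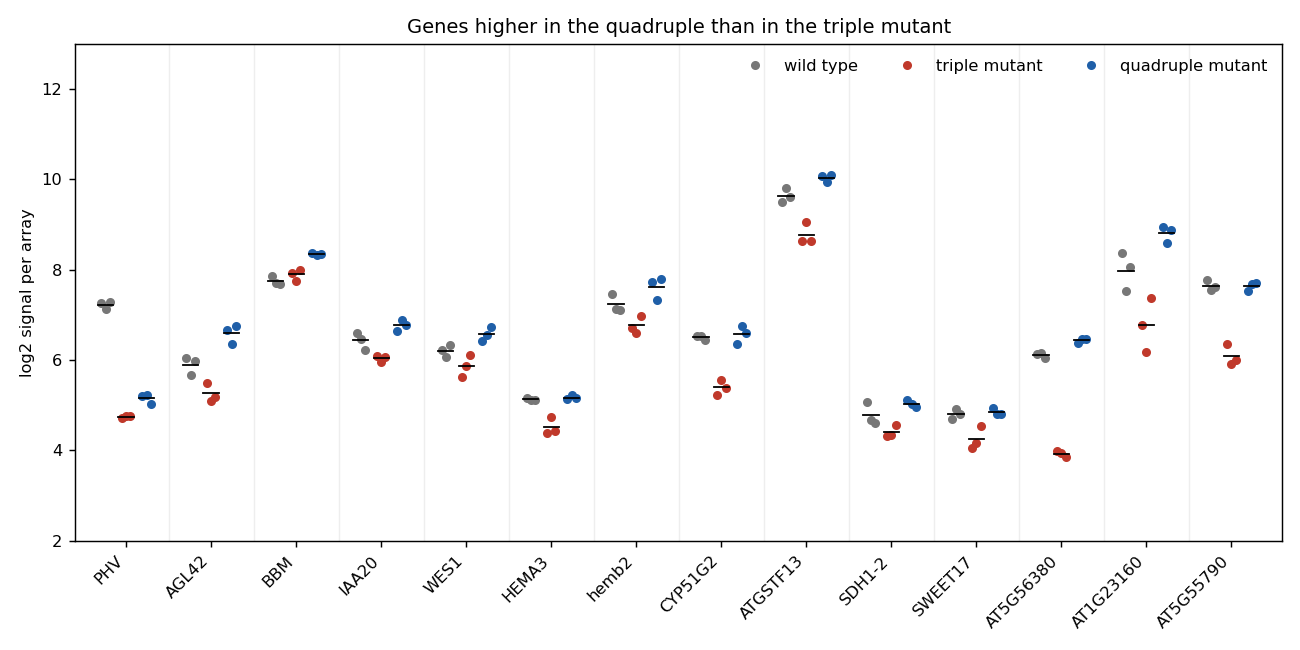
Log2 signal on each array (points, replicates 1 to 3 from left to right) and genotype mean (bars) for 14 genes that rose. In every gene the 3 quadruple-mutant points lie above the 3 triple-mutant points, and for PHV both mutants lie far below wild type.

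Among probe sets with 1 listed gene, the 7 largest rises were in genes known here only by locus. AT5G56380 read 3.99, 3.93 and 3.86 in the triple mutant, 6.38, 6.47 and 6.47 in the quadruple mutant and 6.13, 6.15 and 6.05 in wild type. The mutants were separated by 2.39 or more on every pair of arrays, and the gene was 5.71-fold higher in the quadruple mutant (limma log2 change 2.51 ± 0.08 SE, adjusted p = 4.11e-07). AT1G23160 read 6.78, 6.17 and 7.37 in the triple against 8.95, 8.60 and 8.88 in the quadruple mutant (limma log2 change 2.03 ± 0.28 SE, adjusted p = 0.00514), and its triple-mutant arrays were the more spread. AT5G55790 read 6.35, 5.91 and 6.01 in the triple against 7.54, 7.68 and 7.71 in the quadruple mutant, next to 7.77, 7.54 and 7.62 in wild type (limma log2 change 1.55, adjusted p = 2.46e-04). AT5G22580, AT3G48460, AT1G29270 and AT1G47410 rose by 1.79, 1.78, 1.73 and 1.41. AT5G64710, AT1G22030, AT3G62320, AT5G51470 and AT4G39955 rose by 1.1 to 1.2. Of these 12, AT3G48460, AT1G29270 and AT5G51470 lost their call without triple-mutant replicate 1 and without quadruple-mutant replicate 2, among others, with adjusted p up to 0.0692, 0.0682 and 0.0608.

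CLE41, the precursor of a peptide that keeps vascular stem cells dividing and undifferentiated, read 7.26, 7.72 and 6.98 in the triple mutant, 5.78, 5.93 and 5.61 in the quadruple mutant and 6.11, 6.23 and 5.76 in wild type. The quadruple and wild-type ranges overlapped and both lay below the triple mutant, and CLE41 was 2.92-fold lower in the quadruple mutant (limma log2 change -1.54 ± 0.19 SE, adjusted p = 0.00201). CLE44, which encodes the same mature peptide, read 4.49, 4.43 and 4.08 in the triple against 4.44, 4.63 and 4.43 in the quadruple mutant. Those ranges overlapped (limma log2 change 0.17, adjusted p = 0.871). Of 17 measured CLE and RALF peptide genes CLE41 alone passed (5.88%, beside 2.22% of all probe sets). RALFL33 and RALFL32 both stood at -0.59 (adjusted p = 0.108 and 0.249) but passed with the replicate block (adjusted p = 0.0191 and 0.00576).

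BIM1, a bHLH partner of the brassinosteroid transcription factors, read 6.05, 5.61 and 5.98 in the triple against 4.98, 4.83 and 5.16 in the quadruple mutant, with 4.96, 4.84 and 5.0 in wild type. It was 1.85-fold lower in the quadruple mutant (limma log2 change -0.89 ± 0.13 SE, adjusted p = 0.00628). ROXY1 and ROXY2, glutaredoxins of a plant-specific class known from petal and anther development, fell together. ROXY2 read 6.92, 6.90 and 6.61 in the triple against 5.90, 6.13 and 5.76 in the quadruple mutant (limma log2 change -0.88 ± 0.12 SE, adjusted p = 0.00468). ROXY1 was brighter, at 8.41, 8.71 and 8.10 against 7.33, 7.74 and 7.60 (limma log2 change -0.85 ± 0.18 SE, adjusted p = 0.0378). Neither pair of ranges overlapped. Wild type read 6.37, 6.27 and 6.16 for ROXY2 and 7.64, 7.80 and 7.28 for ROXY1. All 7 measured redox genes had a change below 0, and 28.6% passed, beside 2.22% of all probe sets. The 5 besides ROXY1 and ROXY2 did not pass, with GRX480, a further ROXY-type glutaredoxin, at -0.77 (adjusted p = 0.605, or 0.0147 with the replicate block, where it passed).

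UPB1, a bHLH factor that controls the balance of reactive oxygen species where root cells leave division for elongation, read 6.32, 5.94 and 5.66 in the triple against 5.19, 4.46 and 5.19 in the quadruple mutant. The ranges of the mutants did not overlap (limma log2 change -1.02 ± 0.22 SE, adjusted p = 0.0462), and wild type read 5.19, 4.72 and 4.87. The 3 class III peroxidases counted by symbol, of a family that UPB1 is known to repress, lay between -0.22 and -0.01 without passing. Peroxidases known here only by locus were not counted, so the family as a whole was not described. PRN, a pirin, fell by 0.90, from 5.96, 5.26 and 5.45 to 4.67, 4.75 and 4.57, and the calcium sensor CML43 fell by 0.64. CML37 and CML38 stood at -1.37 and -1.40 but did not pass (adjusted p = 0.460 and 0.229) except with the replicate block (adjusted p = 0.00661 and 0.00125). UPB1 passed in 1 of the 9 fits without 1 array, that without triple-mutant replicate 3, and neither after quantile normalization (adjusted p = 0.0594) nor with the 6 mutant arrays fitted alone (adjusted p = 0.0749). PRN passed in 3, those without triple-mutant replicate 2 or wild-type replicates 2 or 3, and not after quantile normalization (adjusted p = 0.0567). ROXY1 passed in 3, those without triple-mutant replicate 3 or wild-type replicates 2 or 3. CML43 passed in 4, those without triple-mutant replicate 3 or a wild-type array, and adjusted p reached 0.182 for UPB1, 0.122 for PRN, 0.165 for ROXY1 and 0.0886 for CML43.

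ICL, the isocitrate lyase of the glyoxylate cycle, read 6.72, 7.54 and 7.25 in the triple mutant, 4.47, 4.77 and 4.33 in the quadruple mutant and 4.38, 5.55 and 4.81 in wild type. The mutants were 1.94 or more apart, and ICL was 6.25-fold lower in the quadruple mutant (limma log2 change -2.64 ± 0.29 SE, adjusted p = 0.00126). SDP1 and AIM1, the other measured genes of fat mobilisation, stood at -0.11 and -0.02 (adjusted p = 0.880 and 0.988). QQS, a gene without known relatives that affects starch levels, read 11.95, 11.67 and 11.65 in the triple against 9.88, 9.75 and 9.65 in the quadruple mutant, and both lay far above wild type at 5.65, 4.07 and 3.90. Its change of -2.0 had an SE of 0.36 (limma adjusted p = 0.0204) because the fit pools the spread with wild type, where the SD was 0.96 against 0.16 and 0.11 in the mutants. It was the 1 of 6 measured starch and sucrose genes to pass (16.7%, beside 2.22% of all probe sets). Without any 1 of the 6 mutant arrays QQS did not pass, with adjusted p up to 0.0921.

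MGL, methionine gamma-lyase, which breaks methionine down, read 6.02, 5.62 and 6.21 in the triple against 4.32, 4.63 and 4.50 in the quadruple mutant. It was 2.77-fold lower (limma log2 change -1.47 ± 0.19 SE, adjusted p = 0.00351), and wild type read 5.18, 4.76 and 5.47. SUFE2, an activator of cysteine desulfurase in iron-sulfur cluster assembly, read 9.85, 9.78 and 9.27 in the triple against 8.29, 8.22 and 8.40 in the quadruple mutant, with 8.57, 8.75 and 8.52 in wild type. It was 2.51-fold lower (limma log2 change -1.33 ± 0.15 SE, adjusted p = 0.00136), with the quadruple mutant below wild type on every array. The other 4 measured sulfur genes, on a list drawn up after the values were seen, stood between -0.04 and 0.19.

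TRI, named for tropinone reductase, read 8.48, 8.56 and 8.28 in the triple against 7.17, 6.96 and 7.22 in the quadruple mutant, with wild type between them at 8.05, 7.65 and 7.92. The 3 genotypes did not overlap, and TRI was 2.50-fold lower in the quadruple mutant (limma log2 change -1.32 ± 0.13 SE, adjusted p = 5.98e-04). The organic cation transporter OCT4 read 6.85, 6.81 and 6.66 in the triple against 5.42, 5.11 and 5.64 in the quadruple mutant (limma log2 change -1.38 ± 0.14 SE, adjusted p = 9.72e-04). OCT5 read 5.86, 5.99 and 5.67 against 4.41, 4.98 and 4.48 (limma log2 change -1.22 ± 0.15 SE, adjusted p = 0.00288). In wild type OCT4 read 5.78, 5.84 and 6.15, and OCT5 read 4.95, 4.96 and 5.19. Both transporters fell without overlap, whereas OCT1, the third measured one, was near the low end of the signal in both mutants, with means of 3.47 and 3.42 (adjusted p = 0.969). The calls of MGL, SUFE2, TRI, OCT4 and OCT5 held in all 9 fits without 1 array.

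Of 48 measured UDP-glycosyltransferases, which attach sugars to hormones, defence compounds and other small molecules, 8 fell (16.7%), none rose and 40 did not pass, beside 1.66% lower and 0.554% higher of all probe sets. With the replicate number as a block, 10 fell and 1 rose. The median log2 change over the 48 was -0.05, with 32 below 0, where 58.1% of all probe sets had a change above 0. UGT73B1 read 8.12, 7.90 and 7.54 in the triple against 6.65, 6.62 and 6.19 in the quadruple mutant (limma log2 change -1.37, adjusted p = 0.00317). UGT76B1, which glycosylates regulators of salicylic acid responses, read 9.20, 8.65 and 9.24 against 7.45, 8.02 and 7.58 (limma log2 change -1.35, adjusted p = 0.00602). UGT73C7 read 5.88, 5.66 and 5.52 against 4.65, 4.74 and 4.37 (limma log2 change -1.1, adjusted p = 0.00136). None of these mutant ranges overlapped. Wild type read 6.76, 6.74 and 6.39 for UGT73B1, 7.98, 8.04 and 7.62 for UGT76B1, and 4.55, 4.49 and 4.47 for UGT73C7. The other 5 were UGT71C1 (-0.85), UGT74D1 (-0.70), UGT71C3 (-0.67), UGT85A2 (-0.43) and IAGLU (-0.42), of which UGT74D1 and IAGLU are known to act on auxins. Relatives close by name did not pass, among them UGT73B5 (-0.77, adjusted p = 0.073), UGT73B4 (-0.37, adjusted p = 0.215), UGT71C4 (-0.21, adjusted p = 0.419) and UGT71C5 (0.14, adjusted p = 0.825). The value farthest above 0 was that of UGT78D1, at 0.82 (adjusted p = 0.529). The genes that passed with the block alone were UGT78D1, UGT73B5 and UGT76E2 (adjusted p = 0.0490, 0.0174 and 0.0257). UGT71C1 and UGT85A2 did not pass without any 1 of the 6 mutant arrays, nor did UGT74D1, which also needed wild-type replicate 1, with adjusted p up to 0.0942, 0.117 and 0.133. UGT71C3 needed triple-mutant replicates 1 and 2 (up to 0.0605), and IAGLU passed in none of the 9 fits (up to 0.210), nor after median centring or with the 6 mutant arrays alone (adjusted p = 0.0596 and 0.0729).

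**Figure D4:**
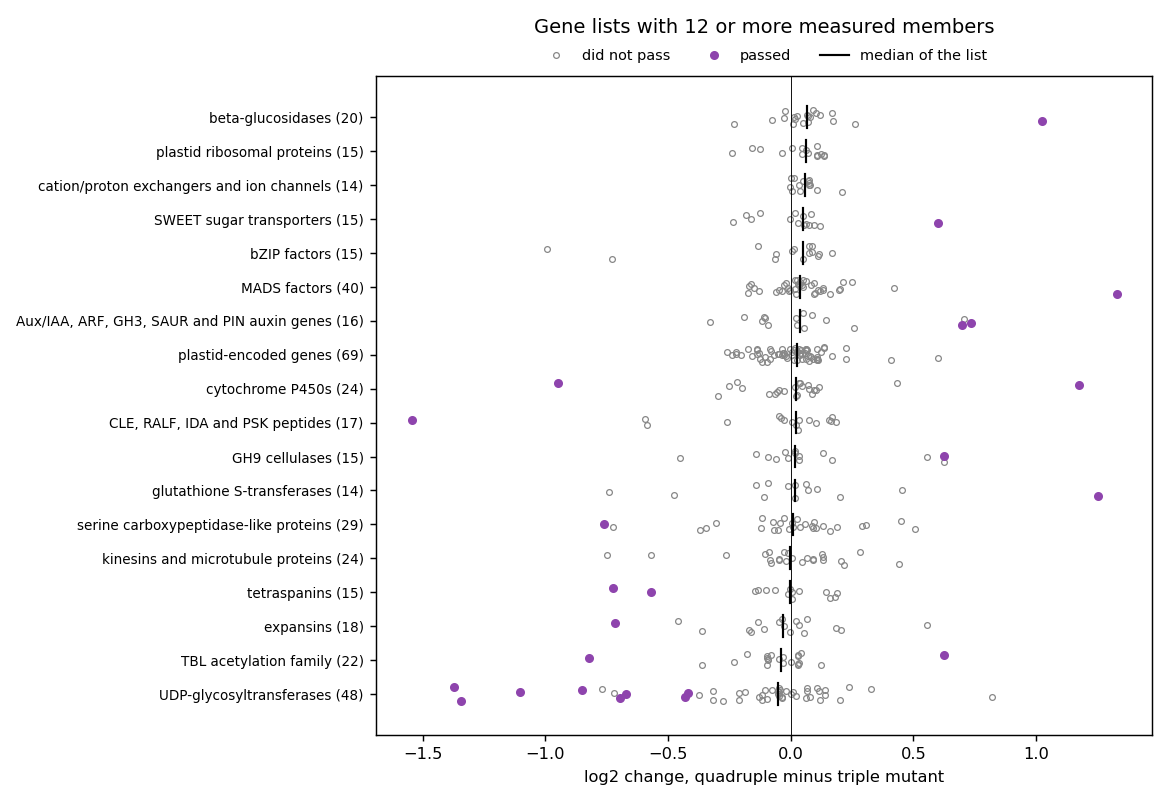
Log2 change between the mutants (horizontal axis, quadruple minus triple) of every measured member of each gene list with 12 or more, 1 point per gene, with the number of members in brackets. Filled points passed and bars mark medians, which lie between -0.05 and 0.07, and most lists have no more than 2 members that passed.

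XTH18, a xyloglucan endotransglucosylase that cuts and rejoins wall polymers, read 7.23, 6.79 and 6.98 in the triple against 5.35, 5.02 and 4.95 in the quadruple mutant, with 5.54, 5.32 and 5.0 in wild type. It was 3.71-fold lower in the quadruple mutant (limma log2 change -1.89 ± 0.16 SE, adjusted p = 3.85e-04). The other 8 measured XTH genes did not pass, so that 11.1% passed, beside 2.22% of all probe sets. XTH19 stood at -0.68 (adjusted p = 0.072, or 0.0279 with the replicate block, where it passed). The beta-expansin EXPB1 fell by 0.72, as 1 of 18 measured expansins, TBL37 by 0.82, as 1 of 22 members of its family, and the carboxypeptidase-like gene scpl18 by 0.76, as 1 of 29. In these 3 lists 5.56%, 9.09% (with TBL45, which rose) and 3.45% passed, beside 2.22% of all probe sets. With the replicate block 2 members of the TBL and 3 of the carboxypeptidase-like family fell, and 1 of each rose. The tetraspanins TET8 and TET6, membrane proteins, fell by 0.72 and 0.57, and the other 13 of 15 did not pass. Thus 13.3% passed, beside 2.22% of all probe sets. EXPB1 lost its call without any 1 of the mutant arrays, and TET6 and TBL37 without any 1 of them but triple-mutant replicate 3, with adjusted p up to 0.154, 0.108 and 0.154. EXPB1 and TBL37 did not pass after quantile normalization either (adjusted p = 0.0611 and 0.0543). That of scpl18 ended without quadruple-mutant replicates 2 or 3 or triple-mutant replicates 1 or 3 (up to 0.0867), and that of TET8 without quadruple-mutant replicate 2 or triple-mutant replicate 1 (up to 0.0596).

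LTI30, a dehydrin, read 9.97, 10.42 and 9.46 in the triple against 8.56, 8.56 and 8.26 in the quadruple mutant (limma log2 change -1.49 ± 0.21 SE, adjusted p = 0.00514). Its wild-type values were 8.87, 9.09 and 8.72. LTI30 was the 1 of 8 listed genes to pass (12.5%, beside 2.22% of all probe sets), and 7 of the 8 had changes below 0. RD2, named for its response to desiccation, fell by 0.65 from 10.85, 11.05 and 10.61 to 10.27, 10.21 and 10.07. SRC2, a C2-domain protein named for cold regulation in soybean, fell by 1.16 (adjusted p = 0.0344). PUB23 is a U-box ubiquitin ligase that dampens immune signalling. It read 8.28, 8.36 and 8.25 in the triple against 7.39, 7.18 and 7.54 in the quadruple mutant, with 7.70, 7.68 and 7.16 in wild type (limma log2 change between the mutants -0.92, adjusted p = 0.0108). It was 1 of 9 measured U-box ligases to pass (11.1%, beside 2.22% of all probe sets). With the replicate block 3 of them passed, all lower. The zinc-finger stress regulator STZ, the 1 measured gene on the list of touch and wounding genes, read 9.98, 9.64 and 9.47 in the triple against 8.95, 8.37 and 8.30 in the quadruple mutant. Its ranges did not overlap, but it did not pass (limma log2 change -1.16 ± 0.34 SE, adjusted p = 0.147) except with the replicate block (adjusted p = 0.00663). The part of handling during dissection in these values was not tested. RD2 lost its call without any 1 of the mutant arrays but triple-mutant replicate 3 (up to 0.0886), and SRC2 without any mutant array or wild-type replicate 1 (up to 0.121) and with the 6 mutant arrays alone (adjusted p = 0.0528). PUB23 needed quadruple-mutant replicates 1 and 2 and triple-mutant replicate 1 (up to 0.0557).

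The last falls with a symbol were ATPC1 (-0.86), a gamma subunit of the chloroplast ATP synthase, NANA (-0.67), a chloroplast aspartic protease, and LPR2 (-0.50), a multicopper oxidase of the root response to low phosphate. LPR2 was dim, at 4.18, 4.13 and 3.98 in the triple against 3.54, 3.53 and 3.71 in the quadruple mutant, and its relative LPR1 stood at -0.06 (adjusted p = 0.970). The groupings with relatives of LPR2, OCT4, SDH1-2, ROXY1 and XIC were drawn up after the values were seen. ATPC1 and NANA each lost their call in 5 of the 9 fits without 1 array, both among them without quadruple-mutant replicates 2 and 3 and triple-mutant replicates 1 and 3, and LPR2 in 4, with replicates 1 or 2 of either mutant left out. Adjusted p reached 0.110, 0.0942 and 0.126.

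**Figure D5:**
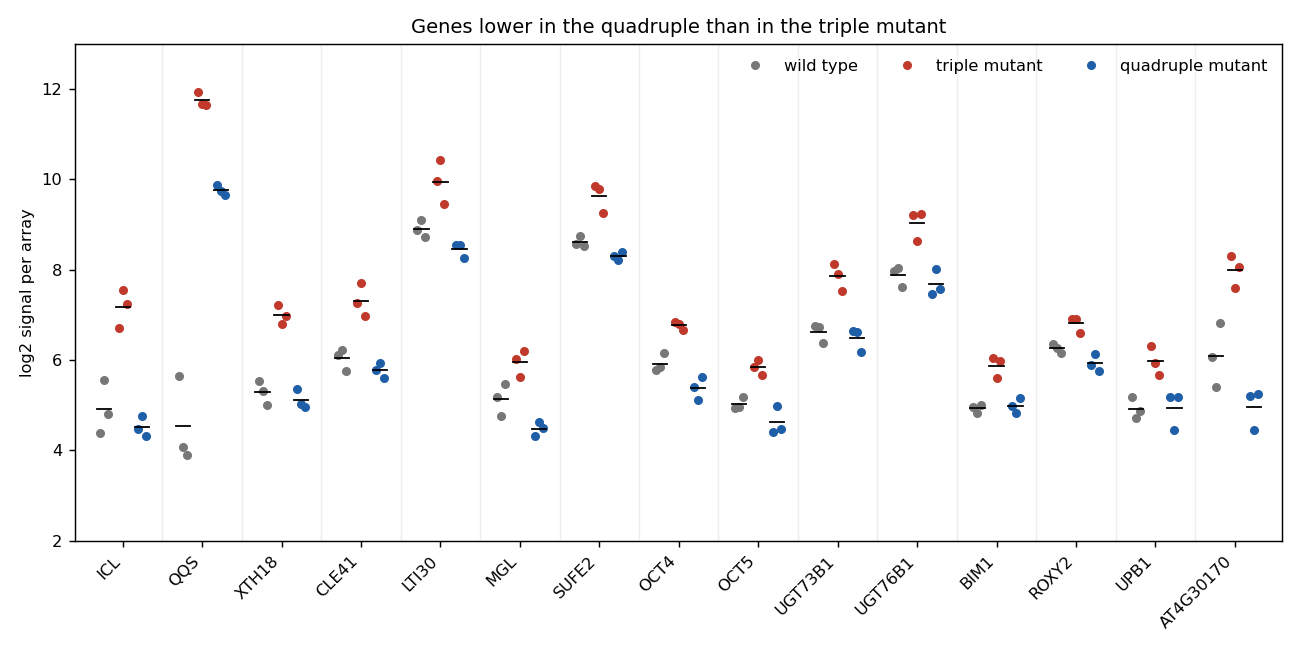
Log2 signal on each array (points, replicates 1 to 3 from left to right) and genotype mean (bars) for 15 genes that fell. The 3 quadruple-mutant points of each gene lie below the 3 triple-mutant points, and QQS is far above wild type in both mutants.

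The largest fall was that of AT4G30170, which read 8.31, 7.59 and 8.07 in the triple mutant, 5.21, 4.46 and 5.24 in the quadruple mutant and 6.08, 5.41 and 6.82 in wild type. It was 8.13-fold lower (limma log2 change -3.02 ± 0.34 SE, adjusted p = 0.00146), and the 3 genotypes did not overlap. AT4G09760 read 6.36, 6.71 and 5.94 against 3.83, 3.87 and 3.89 (limma log2 change -2.47 ± 0.19 SE, adjusted p = 2.38e-04), and its quadruple values were at the level of wild type, 4.24, 4.11 and 3.72. AT2G45180 read 10.22, 9.64 and 9.50 against 7.67, 7.97 and 7.21, with wild type between them at 8.84, 8.94 and 8.59 (limma log2 change -2.17, adjusted p = 8.83e-04). AT1G72900, AT1G76470, AT2G25450, AT2G27830, AT5G42250 and AT4G16563 fell, with log2 changes from -2.11 to -1.91, each in all 9 fits without 1 array. AT1G05575 (-2.05), AT5G34920 (-1.96) and AT1G15010 (-1.76) were the least even. AT5G34920 read 4.17, 4.56 and 6.29 in the triple mutant, its log2 change was -1.31 without triple-mutant replicate 3, and its probe set is of a kind that matches more than 1 transcript. It did not pass with the variance trend and robust setting (adjusted p = 0.0673) or with the 6 mutant arrays alone (adjusted p = 0.0969). The calls of AT1G05575, AT5G34920 and AT1G15010 ended in 5, 7 and 6 of the 9 fits, with adjusted p up to 0.128, 0.177 and 0.148, and all of them did so without triple-mutant replicate 2, quadruple-mutant replicate 2 and quadruple-mutant replicate 3.

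Other lists held no gene that passed. Among lists with at least 5 measured members there were 12 such lists, with 181 memberships, among them 69 plastid-encoded genes (median log2 change 0.02), 24 kinesins and microtubule proteins, 15 bZIP factors, 7 histones and 6 WRKY factors. With the replicate block TUB1 and TUB5 of the second and BZIP61 of the third of these passed as lower (adjusted p = 0.0119, 0.00518 and 0.00601). Markers of other cell types were thinly covered. The root-hair expansins EXPA7 and EXPA18 were dim in every genotype, at 3.85 to 3.95 and 3.59 to 3.85 in the mutants, with log2 changes of -0.03 and 0.02 (adjusted p = 0.971 and 0.985). AUR1, an Aurora kinase of dividing cells, read 9.56, 9.50 and 9.46 in the triple against 9.72, 9.67 and 9.69 in the quadruple mutant, without overlap and without passing (log2 change 0.18, adjusted p = 0.397). OPS, a gene of early phloem, read 5.06, 5.27 and 4.91 in the triple against 4.28, 4.37 and 4.75 in the quadruple mutant, just missing the threshold (log2 change -0.61, adjusted p = 0.050) and passing with the replicate block (adjusted p = 0.0375). No markers of root cap, endodermis, xylem, non-hair cells or leaf had a probe set listed to 1 gene with a symbol. Shifts in those cells were therefore not analysed here. The cytokinin response regulator ARR15 stood at 0.67 (adjusted p = 0.115) and passed with the replicate block (adjusted p = 0.0167).

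Genes near the mutated loci were examined because plants picked for an allele also carry the DNA around it. In the RefSeq gene order, 261 of 12292 genes with 1 representative probe set passed (2.12%). Among the 250 genes on either side of REV, on chromosome 5, 238 were measured and 2 passed (0.840%, exact 95% interval 0.102 to 3.0, which covers counting error only). These were AGL42, which rose by 1.33, and AT5G62350, which fell by 0.53. Around CNA 5 of 233 passed (2.15%), around PHB 6 of 202 (2.97%) and around PHV 4 of 217 (1.84%). The intervals of all 4 windows included 2.12%, but with 2 to 6 calls in each window they were wide. Of the 100 genes on either side of REV, 89 were measured and 0 passed. Of the 500 on either side 9 of 452 passed (1.99%). Over the 5 nuclear chromosomes the share lay between 1.92% and 2.41%.

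Around CNA, AT1G52050, AT1G52060 and AT1G52070 are neighbours on chromosome 1 and rose together by 0.52, 0.75 and 0.45. AT1G52060 read 10.80, 10.98 and 11.02 in the triple against 11.67, 11.69 and 11.69 in the quadruple mutant, beside 11.55, 11.55 and 11.67 in wild type (limma adjusted p = 0.00174). AT1G53560 fell by 1.15 and AT1G50270 rose by 0.52 in the same window. In the other windows, AT2G36220 (-1.69), PUB23 (-0.92), AT2G34060 (0.86) and TBL37 (-0.82) lay near PHB, and AT1G29270 (1.73), AT1G32090 (-0.68), AT1G28680 (0.67) and AT1G28580 (-0.58) near PHV. Of the genes in these windows, AT5G62350, AT1G52050, AT1G50270, AT2G36220, AT2G34060, AT1G32090, AT1G28680 and AT1G28580 lost their call without 1 array or another in 2 to 8 of the 9 fits, with adjusted p up to 0.199, all of them without quadruple-mutant replicate 2 but AT2G34060, whose call ended without quadruple-mutant replicate 1. AT1G32090 also missed the threshold after quantile normalization (adjusted p = 0.0600), after median centring (0.0513), with the variance trend and robust setting (0.0509) and with the 6 mutant arrays alone (0.0758). AT1G50270 missed it with the variance trend and robust setting (adjusted p = 0.0654).

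Of 5877 pairs of neighbouring genes with both members measured, 10 had both pass, and 8 of these moved the same way. AT5G56370, next to AT5G56380 on chromosome 5, rose by 0.67 where AT5G56380 rose by 2.51. AT1G79420 fell by 1.07 beside OCT5 (-1.22), and AT2G29340 fell by 0.53 beside TRI (-1.32). AT5G55780 and AT5G55790 moved in opposite directions, at -0.69 and 1.55, as did AT2G34060 and TBL37.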

How the data were processed

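Affymetrix ATH1 arrays gave 1 value per probe set and array. The deposited values are on the log2 scale, made with Affymetrix Expression Console and RMA per the submitters' processing notes, which also name limma. The sources used here do not give versions. The RMA method subtracts background, quantile-normalizes the arrays and combines each set's probes, so changes are relative to other transcripts. Per the labels' protocols, 250 ng of total RNA was labelled per array, and the labels call the replicates biological.

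Of 22810 probe sets, 64 controls were left out. The platform annotation gives 1 gene for 13513 of the 22746 tested, several for 503 and none for 8730, which are unnamed here; 13436 of the 13513 matched RefSeq. Of the 504 probe sets that passed, 264 have 1 gene and 231 are unnamed. Gene order comes from RefSeq's TAIR10.1 table, and no coordinates are printed. No detection calls were used, so dim genes may be at background.

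A mean per genotype was fitted to all 9 arrays with limma 3.58.1 in R 4.3.3, with 6 residual degrees of freedom, eBayes moderation and Benjamini-Hochberg adjustment over 22746 probe sets. Adjusted p under 0.05 passed. The fit was tested on simulated data. The number of arrays limits the precision, and p-values set the difference between the mutants against the spread within genotypes of these samples. Same-numbered mutant arrays deviated together (correlations 0.217, 0.340 and 0.515 across probe sets), so the titles' numbers were read as pairing them. The main fit, with 504 calls, did not use this pairing. Only the replicate block did, with 1114 calls, so a gene that did not pass in the main fit may pass with the block.

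The genes and lists were chosen with earlier results of these data known. Named by rule were PHV, the 15 highest and 15 lowest changes among called probe sets with 1 gene and no overlap, up to 4 called members per list, and up to 4 called genes within 250 genes of REV, CNA, PHB and PHV. Every other called gene with a symbol was named too, a choice made after the values were seen. List members counted only where RefSeq gives a symbol. Where a gene had several probe sets, the brightest stood for it. Alternatives were the replicate block, array weights, the 6 mutant arrays alone, a minimum mean log2 signal of 5, a 2-fold minimum, 1 probe set per locus, median centring, quantile normalization, a variance trend with robust estimation and leaving out each array.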

Additional observations from a re-analysis of the deposited data

Results flagged for a closer look

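Outside the gene measurements, the poly-A spike-in controls had a mean log2 signal of 7.20 on triple-mutant replicate 3 and 6.71 on quadruple-mutant replicate 3. Both exceeded the wild-type arrays, at 4.82 to 5.25, by more than 1 on the log2 scale.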

How the results depend on the processing

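The count of 504 probe sets (126 higher, 378 lower) moved by over 1.5 times under 4 settings: 1114 with the replicate block (296 and 818), 1663 with array weights (640 and 1023), 257 with 1 probe set per locus (78 and 179), where fewer probe sets are tested, and 164 with a 2-fold minimum (25 and 139). Over the 9 fits without 1 array it lay between 220 and 610 (49 to 154 higher, 171 to 456 lower). Apart from the construction of those settings, the cause was not tested. It lay between 461 and 528 with the 6 mutant arrays alone, a minimum signal of 5, median centring, quantile normalization or a variance trend. The replicate block ended no call of the 87 named genes that passed. Of these 87, 39 passed in every fit without 1 array, 48 lost the call in at least 1 and 33 in 5 or more. The calls lost were 9 with the 6 mutant arrays alone, 6 after quantile normalization, 5 with the variance trend, 2 after median centring and 31 without the arrays numbered 3, a setting with fewer arrays that was chosen after the data were seen. No named gene changed direction except EXPA18, which did not pass anywhere: the log2 change of EXPA18 was -0.0099 without quadruple-mutant replicate 1, between -0.047 and 0.0843 over the fits without 1 array, and -0.026 without the arrays numbered 3. Genes with a mean log2 signal under 4 had few calls.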
